A study of Mus musculus with 8 samples.

Results

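ATP-binding cassette (ABC) efflux transporters were examined as a set of 10 genes in neonatal mouse testes. The set holds the P-glycoprotein genes Abcb1a and Abcb1b, the multidrug resistance-associated protein genes Abcc1, Abcc3, Abcc4 and Abcc5, the breast cancer resistance protein gene Abcg2, and the lipid exporters Abca1, Abcg1 and Abca2. Members were found by gene symbol among 23767 genes of the deposited table, and the transcript with the highest average of the group means stood for each gene. All 10 were present, and all 10 were among the 15225 genes that reached 1 RPKM (reads per kilobase of transcript, scaled to the reads of the library) in the mean of one group or both.

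RNA sequencing compared 4 testis samples labelled Dio3KO with 4 wild-type testis samples. All 8 were of the 129/SVJ background and were collected at postnatal day 5. The title of the study concerns genes of the neonatal testis regulated by thyroid hormone, and Dio3 encodes the deiodinase that inactivates this hormone. How Dio3 was altered, and whether a sample was 1 animal or a pool, is left unsaid in the labels. Each level below is the authors' mean over the samples of a group, with their coefficient of variation (CV, the SD divided by the mean). Values of single samples were not used. Because 4 values with a given mean and SD cannot lie more than 1.5 SD from that mean, the widest range that the samples of a group could span was computed from each CV and is given in place of single values. Read depth is unknown.

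Dio3 itself averaged 2.95 RPKM (CV 0.29) in Dio3KO-labelled testes and 0.52 RPKM (CV 0.20) in wild-type testes, so its level does not check the labels, and every direction below rests on them. Sertoli, Leydig and germ cell markers were present in both groups at the levels given further on. The extraction text names hypothalami, whereas the hypothalamic peptide genes Avp, Oxt and Hcrt were at most 0.03 RPKM in Dio3KO-labelled and 0.06 RPKM in wild-type samples. Pmch, another such gene, was at 1.05 RPKM in Dio3KO-labelled and 1.89 RPKM in wild-type samples. Over all 15225 genes, 2127 (14.0%) were higher and 2421 (15.9%) lower in Dio3KO-labelled testes with an adjusted p below 0.05 per the authors' deposited table. A moderated test made from the means and CVs with limma called 2837 genes (18.6%) higher and 3533 (23.2%) lower. After the 2 groups' means were rescaled to the same sum over all transcripts, limma called 4284 higher and 1949 lower, and after centring on the median ratio 3522 and 2561, so the balance of directions depended on the scaling. "Rose" and "fell" are written only of genes with an adjusted p below 0.05 per the authors' deposited table.

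ABC transporters use the energy of ATP to move compounds across membranes. P-glycoprotein, the multidrug resistance-associated proteins (MRPs) and the breast cancer resistance protein (BCRP) export drugs, hormones and their conjugates, and at blood-tissue borders such as the blood-testis barrier they limit what enters the tissue. ABCA1 and ABCG1 hand cholesterol and phospholipid to apolipoproteins and lipoproteins, a route that liver X receptors switch on when cells are loaded with sterol.

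The P-glycoprotein genes Abcb1a and Abcb1b arose by duplication and lie next to each other on mouse chromosome 5. By GENCODE M21 annotation of mm10, Abcb1a (ENSMUSG00000040584.8) covers chr5:8660077-8748575 and Abcb1b (ENSMUSG00000028970.9) covers chr5:8798147-8866315, both on the plus strand. Their coding sequences, each 3828 bases long, were identical at 88.1% of 3819 aligned bases. The longest identical stretch, shown because reads that lie within it cannot be assigned to either gene, is 338 bases long, spans 2 exons of Abcb1a between chr5:8702387-8702944, and holds the ABC signature, the short motif that marks the nucleotide-binding domain of this family. Of it 150 coding bases, from both exons between chr5:8702519-8702888 on the plus strand, are printed, with the codons of the signature in capitals.
Abcb1a and Abcb1b: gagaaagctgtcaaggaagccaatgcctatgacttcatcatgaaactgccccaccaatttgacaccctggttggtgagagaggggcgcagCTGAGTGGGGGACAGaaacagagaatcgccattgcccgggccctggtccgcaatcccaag
The 60 aligned coding bases in which the pair is least alike, 35 of 60 identical, are shown as the kind of stretch from which reads can be told apart. Capitals mark the bases that differ.
Abcb1a, chr5:8714924-8714983, plus strand: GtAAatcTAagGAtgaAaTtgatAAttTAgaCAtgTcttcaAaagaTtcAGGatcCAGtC
Abcb1b, chr5:8827363-8827422, plus strand: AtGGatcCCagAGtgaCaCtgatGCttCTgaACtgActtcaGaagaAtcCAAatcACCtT
Of the 50-base windows in the longest coding transcript of Abcb1a, 18.6% were also found in another gene on either strand, and of those in Abcb1b 19.6%. These were 922 and 836 windows, of which 768 were common to the pair. For the other 8 members the share was 0.00%. Levels of Abcb1a and Abcb1b could therefore hold reads of each other, depending on a counting step that is not given in the sources used here, whereas no window of this length is shared for the rest of the set. Exons of the opposite-strand genes Gm42686 and Gm5106 also cover 553 bases of Abcb1a and 143 bases of Abcb1b, and the use of strand in counting is not stated.

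Abcb1a, the P-glycoprotein of capillary endothelium and barrier epithelia, had the largest log2 ratio of the 10 members. It rose, with a mean of 4.74 RPKM (CV 0.08) in Dio3KO-labelled testes and 2.06 RPKM (CV 0.15) in wild-type testes. Its samples could span no more than 4.13 to 5.35 RPKM in the Dio3KO-labelled group and 1.57 to 2.55 RPKM in the wild-type group, so the groups did not overlap. With 0.5 RPKM added to each mean, the log2 ratio came to 1.03 ± 0.10 (SE from the CVs), and the adjusted p was 0.0034 per the authors' deposited table and 1.76e-05 by limma over all genes. This ratio stood above 98.6% of those of all genes tested. The second deposited transcript of Abcb1a also rose, at 3.64 RPKM (CV 0.11) and 1.56 RPKM (CV 0.23) in the same order of groups.

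Abcb1b, the copy that in mice is prominent in steroid-making tissues such as the adrenal gland, gave different answers by transcript. Its best expressed transcript was at 3.66 RPKM (CV 0.10) in Dio3KO-labelled and 3.18 RPKM (CV 0.21) in wild-type testes, with possible ranges of 3.08 to 4.24 RPKM and 2.15 to 4.21 RPKM that overlap. The log2 ratio of 0.18 ± 0.15 (SE from the CVs; 95% interval -0.18 to 0.53) had an adjusted p of 0.3491 per the authors' deposited table and 0.27 by limma. Both other transcripts rose. One was at 1.83 RPKM (CV 0.10) and 1.03 RPKM (CV 0.17) in the same order of groups, with an adjusted p of 0.0101, and the other at 1.77 RPKM (CV 0.12) and 1.05 RPKM (CV 0.18), with 0.0175, both per the authors' deposited table. In these 2 transcripts the possible ranges of the groups did not overlap. The transcript identifiers were not in the reference used here, so the stretch of Abcb1b that sets its best expressed transcript apart is not given. Abcb1a made up 56.4% of the pair's level in Dio3KO-labelled testes and 39.3% in wild-type testes by best expressed transcripts, and 53.6% and 40.8% when all transcripts were summed. Transcripts of a gene share exons, so summing them can count the same reads more than once. The share of Abcb1a is a description of group means and was not tested.

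**Figure D1:**
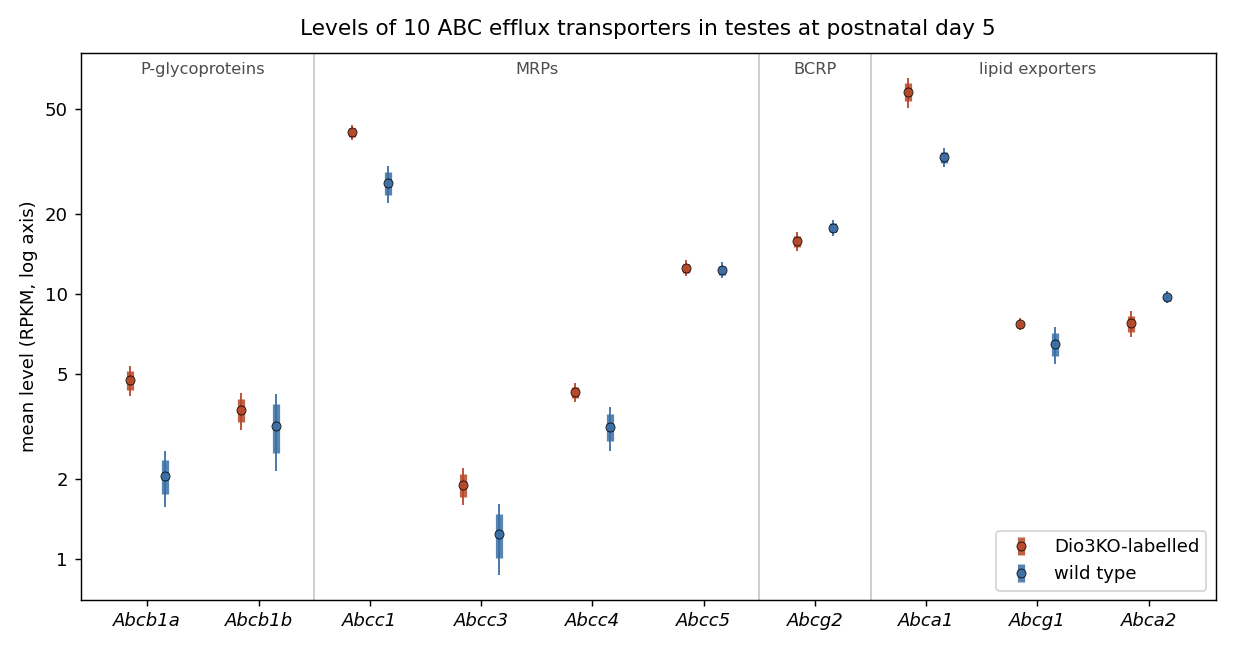
Mean level of each member in RPKM on a log axis, in Dio3KO-labelled testes (left point of each pair) and wild-type testes (right point). Thick bars are ± 1 SD from the deposited CV and thin lines the widest range that 4 samples with that mean and CV can span; the ranges of Abcb1a, Abcc1, Abcc4, Abca1 and Abca2 do not meet between groups.

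Among the MRP genes, 3 of 4 rose and 0 fell, beside 14.0% higher and 15.9% lower among all genes tested. Abcc1 encodes MRP1, which exports glutathione conjugates and leukotriene C4, and in the testis is known as a guard of Sertoli and Leydig cells against toxicants. It lies on the plus strand at chr16:14361558-14475737. Abcc1 rose, with 40.9 RPKM (CV 0.04) in Dio3KO-labelled and 26.2 RPKM (CV 0.10) in wild-type testes. The possible ranges, 38.1 to 43.6 RPKM and 22.1 to 30.3 RPKM, did not overlap. Its log2 ratio was 0.63 ± 0.08 (SE from the CVs) at an adjusted p of 0.0057 per the authors' deposited table, and its second transcript rose as well (18.5 and 12.1 RPKM in the same order).

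Abcc3 encodes MRP3, an exporter of glucuronides and bile salts on the basolateral side of epithelia, and lies on the minus strand at chr11:94343295-94392997. By best expressed transcripts it was the lowest member, at 1.90 RPKM (CV 0.10) in Dio3KO-labelled and 1.24 RPKM (CV 0.19) in wild-type testes. It rose, with an adjusted p of 0.0287 per the authors' deposited table. Its log2 ratio was 0.46 ± 0.11 (SE from the CVs). The possible ranges of 1.60 to 2.21 RPKM and 0.87 to 1.61 RPKM just touch, so an overlap of single samples cannot be told from the table. Its 4 transcripts had nearly the same values and all rose.

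Abcc4 encodes MRP4, which carries cyclic nucleotides, prostaglandins and sulfated steroids, and lies on the minus strand at chr14:118482692-118706219. It rose, with 4.26 RPKM (CV 0.05) in Dio3KO-labelled and 3.16 RPKM (CV 0.12) in wild-type testes and an adjusted p of 0.0238 per the authors' deposited table. The ranges of 3.90 to 4.62 RPKM and 2.56 to 3.76 RPKM did not overlap, and all 3 transcripts rose. Abcc5 encodes MRP5, an exporter of cyclic nucleotides and nucleotide analogs, and lies on the minus strand at chr16:20331303-20426394. Its level was 12.5 RPKM (CV 0.04) in Dio3KO-labelled and 12.3 RPKM (CV 0.04) in wild-type testes, a log2 ratio of 0.02 with a 95% interval of -0.07 to 0.12 and an adjusted p of 0.5644 per the authors' deposited table. None of its 6 transcripts passed the threshold, and their adjusted p values ran from 0.4373 to 0.617 per the authors' deposited table.

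Abcg2, the gene of BCRP, a half-size transporter of sulfated steroids, urate and many drugs that is placed at the testis capillaries and in barrier layers, lies on the plus strand at chr6:58584523-58695676. Abcg2 fell, with 15.8 RPKM (CV 0.05) in Dio3KO-labelled and 17.8 RPKM (CV 0.04) in wild-type testes, a log2 ratio of -0.17 ± 0.04 (SE from the CVs) and an adjusted p of 0.0414 per the authors' deposited table. The possible ranges of 14.5 to 17.1 RPKM and 16.6 to 19.0 RPKM overlap. The call is small and held under some choices but not under others. By limma on the deposited means the adjusted p was 0.026, which passed. Its second transcript, at 7.17 RPKM (CV 0.05) and 7.64 RPKM (CV 0.13) in the same order, had an adjusted p of 0.4512 per the authors' deposited table, and after rescaling to equal sums the limma adjusted p of the best expressed transcript was 0.324 with a log2 ratio of -0.07.

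The lipid exporters moved in both directions. Abca1, which loads cholesterol and phospholipid onto apolipoprotein A1, lies on the minus strand at chr4:53030787-53159895. By best expressed transcripts it had the highest level of the members in both groups, an order that leaves out further transcripts of other members. Abca1 rose, with 58.0 RPKM (CV 0.08) in Dio3KO-labelled and 32.8 RPKM (CV 0.05) in wild-type testes. The possible ranges of 50.6 to 65.4 RPKM and 30.1 to 35.5 RPKM were far apart. Its log2 ratio was 0.81 ± 0.07 (SE from the CVs) at an adjusted p of 0.0101 per the authors' deposited table and 6.11e-06 by limma, and a single transcript was deposited for it.

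Abcg1, which passes sterol on to lipoprotein particles and is a textbook partner of Abca1 in macrophages, lies on the plus strand at chr17:31057675-31117988. It was at 7.70 RPKM (CV 0.03) in Dio3KO-labelled and 6.49 RPKM (CV 0.10) in wild-type testes. The log2 ratio was 0.23 ± 0.07 (SE from the CVs) at an adjusted p of 0.0688 per the authors' deposited table, which did not pass, and 0.024 by limma, which did. The ranges of 7.29 to 8.11 RPKM and 5.46 to 7.52 RPKM overlap slightly. Its second transcript, at 5.58 RPKM (CV 0.03) and 5.25 RPKM (CV 0.13) in the same order, did not pass. Abca2, a transporter of lysosomes and late endosomes that takes part in sterol and sphingolipid handling, lies on the plus strand at chr2:25428703-25448540. Abca2 fell, with 7.75 RPKM (CV 0.07) in Dio3KO-labelled and 9.74 RPKM (CV 0.03) in wild-type testes, a log2 ratio of -0.31 ± 0.05 (SE from the CVs) and an adjusted p of 0.012 per the authors' deposited table. Its ranges of 6.87 to 8.63 RPKM and 9.22 to 10.3 RPKM did not overlap.

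In all, 5 of the 10 members rose, 2 fell and 3 did not pass, beside 14.0% higher and 15.9% lower among all genes tested. The members were chosen with earlier results of these data known, so these counts describe the set and do not test it. Limma called 6 higher and 2 lower, beside 18.6% and 23.2%. The possible ranges of the groups were apart for 4 members in the upward direction and 1 in the downward direction, which 12.0% and 12.7% of all genes tested also reached. The median log2 ratio of the members was 0.30 and that of all genes tested -0.05. Summed over the members, the level was 157 RPKM in Dio3KO-labelled and 115 RPKM in wild-type testes, and most of that difference lay in Abca1 and Abcc1. Across 26 deposited transcripts of the members, 14 rose, 2 fell and 10 did not pass, beside 13.9% higher and 15.7% lower among all 35030 transcripts of at least 1 RPKM. Transcripts of a gene are not independent, and the 4 of Abcc3 and the 3 of Abcc4 had nearly equal values. Calls were mixed in 2 genes, Abcb1b and Abcg2.

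**Figure D2:**
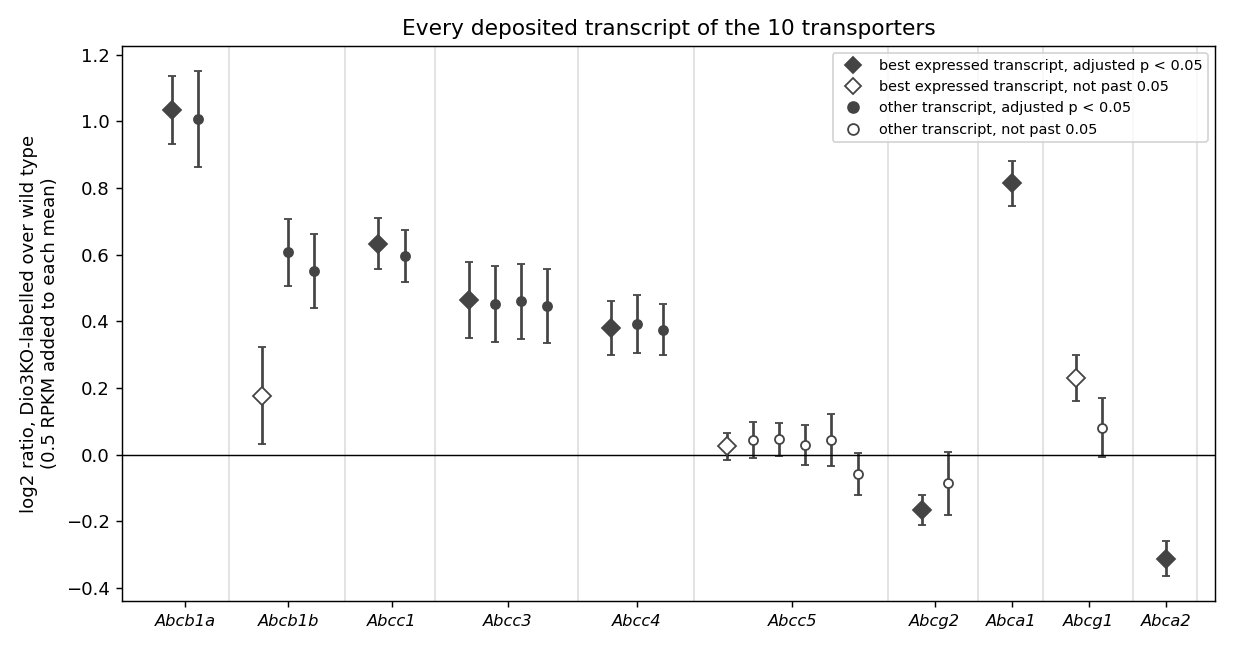
Log2 ratio of Dio3KO-labelled over wild type with its SE for all 26 deposited transcripts of the members, the best expressed transcript of each gene as a diamond. Filled symbols have a deposited adjusted p below 0.05: all transcripts of Abcb1a, Abcc1, Abcc3 and Abcc4 lie above 0, while the best expressed transcript of Abcb1b (0.18) stands below its 2 others (0.61 and 0.55).

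Levels per transcript length were compared between genes by best expressed transcripts only. Summing transcripts would raise genes with several, such as Abcc5 with 6, against Abca1 with 1, and could change the order. How reads were divided among the transcripts of a gene is not given in the sources used here. In Dio3KO-labelled testes the order was Abca1, Abcc1, Abcg2, Abcc5, Abca2, Abcg1, Abcb1a, Abcc4, Abcb1b and Abcc3, and the highest was 30.5 times the lowest. In wild-type testes the highest was 26.4 times the lowest. The first 6 places were the same in both groups, while Abcb1a was seventh in Dio3KO-labelled and ninth in wild-type testes. Neighbours whose possible ranges overlap were Abca2 and Abcg1, Abcb1a and Abcc4, and Abcc4 and Abcb1b in Dio3KO-labelled testes, against Abca1 and Abcc1, Abcb1b and Abcc4, and Abcb1a and Abcc3 in wild-type testes. Reads of Abcb1a and Abcb1b are subject to the shared sequence given above.

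The promoter of Abca1 is shown because liver X receptors act on this gene through a DR4 element, a pair of AGGTCA-like half-sites in direct repeat with 4 bases between them, which is also a layout that thyroid hormone receptors bind. The window of RefSeq (GRCm38.p6) runs from 250 bases before to 50 bases after the start site, on the minus strand, chr4:53159846-53160145. Capitals mark the stretch closest to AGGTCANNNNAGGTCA on either strand.
Abca1 promoter: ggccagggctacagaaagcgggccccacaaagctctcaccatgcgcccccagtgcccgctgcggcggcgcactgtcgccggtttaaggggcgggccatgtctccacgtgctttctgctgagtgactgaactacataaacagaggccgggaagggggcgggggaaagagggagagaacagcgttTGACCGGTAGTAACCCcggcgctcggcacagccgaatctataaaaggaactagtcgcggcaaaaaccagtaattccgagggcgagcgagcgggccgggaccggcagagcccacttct
This stretch begins 67 bases before the start site, reads on the opposite strand and has 3 mismatches to the consensus. At most 3 mismatches were found in 21.9% of 32851 RefSeq promoter windows of the same length, and at most 2 in 3.02%. The window also holds GGGCGG, which 35.7% of windows hold, and CACGTG, held by 7.15%, with no overlap among these matches. Promoter windows were matched for 7 of the 10 members, and in none of them did a stretch have 2 mismatches or fewer. A core antioxidant response element, TGACNNNGC on either strand, lay in 3 of 10 windows of the members, that of Abcb1a and both of Abcc4, against 12.4% of all windows. The window of Abcb1a, chr5:8566841-8567140, lies upstream of the gene as GENCODE M21 draws it, from chr5:8660077. Bases around the GENCODE start of Abcb1a were therefore not searched. These matches describe letters in a window and not bound sites.

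In the rest of the ABC superfamily calls went in both directions. Of 43 further family genes, 18 were below 1 RPKM in both groups and 25 were tested. Of the 25, 4 rose, 4 fell and 17 did not pass, beside 14.0% higher and 15.9% lower among all genes tested. Among these 25 the log2 ratio had a median of -0.08. Limma called 8 higher and 6 lower, beside 18.6% and 23.2% of all genes tested. Abcb5, a P-glycoprotein relative, had the deepest fall, with 0.81 RPKM (CV 0.22) in Dio3KO-labelled and 4.77 RPKM (CV 0.16) in wild-type testes, a log2 ratio of -2.01 ± 0.14 (SE from the CVs) and an adjusted p of 0.0133 per the authors' deposited table. Abcd3, an importer of fatty acyl-CoA into peroxisomes, rose (62.2 RPKM in Dio3KO-labelled and 43.5 RPKM in wild-type testes). Abca6 fell (1.39 RPKM in Dio3KO-labelled and 1.79 RPKM in wild-type testes). Named after their values were seen, Abcd2 and Abca9 also rose, and Abca8b and Abcb6 fell. Abce1, a ribosome recycling factor, and Abcf2 did not pass, at 45.9 and 36.6 RPKM in Dio3KO-labelled and 48.6 and 42.1 RPKM in wild-type testes.

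**Figure D3:**
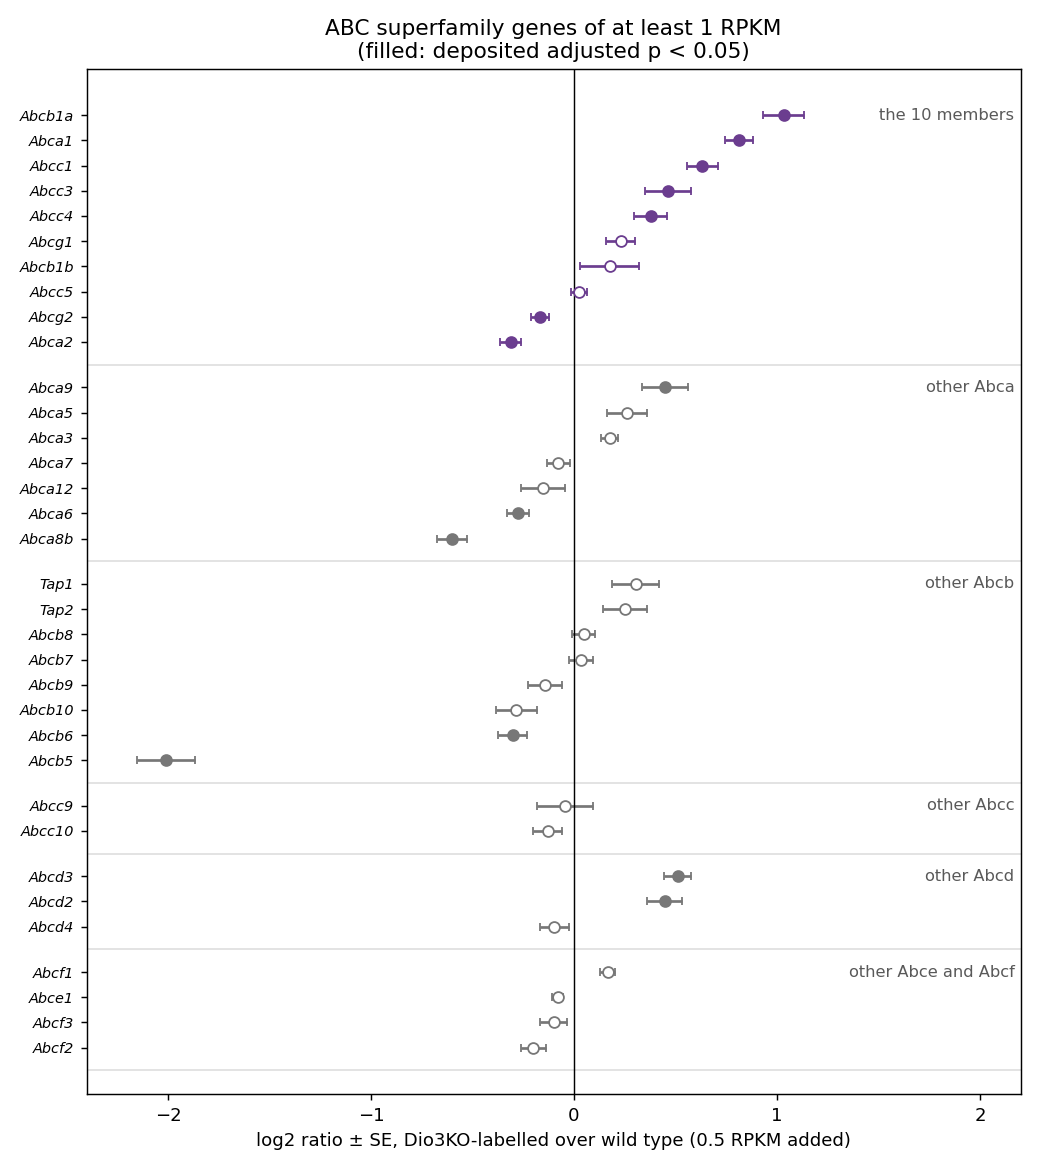
Log2 ratio of Dio3KO-labelled over wild type with its SE for the 10 members (top) and other ABC superfamily genes of at least 1 RPKM, by subfamily, with 1 of these genes not drawn. Members run from 1.03 (Abcb1a) to -0.31 (Abca2), and Abcb5 stands alone at -2.01.

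Of 17 tested genes that work with Abca1 and Abcg1 in sterol export, 7 rose, 0 fell and 10 did not pass, beside 14.0% higher and 15.9% lower among all genes tested, while limma called 8 higher and 0 lower. Their median log2 ratio was 0.12. Soat1, which esterifies cholesterol for storage, rose (71.0 RPKM in Dio3KO-labelled and 35.2 RPKM in wild-type testes), and so did Apoe, an acceptor of exported sterol (145 and 73.8 RPKM in the same order). Cyp27a1, which makes the oxysterol 27-hydroxycholesterol, rose (28.5 and 18.0 RPKM), as did the lysosomal sterol carrier Npc2 (43.3 and 36.5 RPKM). The liver X receptor gene Nr1h2 was at 25.0 RPKM in Dio3KO-labelled and 23.0 RPKM in wild-type testes and did not pass, and neither did Srebf1 (33.4 and 32.4 RPKM). The other liver X receptor gene, Nr1h3, was below 1 RPKM in both groups.

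Of 14 tested receptors and factors known to regulate drug exporters, 5 rose, 1 fell and 8 did not pass. Over all genes tested, 14.0% rose and 15.9% fell. Among the 14 the log2 ratio had a median of 0.05. Nfe2l2, the NRF2 factor of the antioxidant response, rose (57.2 RPKM in Dio3KO-labelled and 41.6 RPKM in wild-type testes). The glucocorticoid receptor gene Nr3c1 (25.8 and 17.3 RPKM), the estrogen receptor gene Esr1 (12.2 and 8.82 RPKM) and Ppara (1.47 and 1.17 RPKM) rose as well. Hif1a (58.3 and 63.5 RPKM) and Sp1 (27.5 and 29.8 RPKM) did not pass. The pregnane X receptor gene Nr1i2 was at 0.03 RPKM in each group. Of 11 tested genes of glutathione supply and the antioxidant response, 0 rose and 2 fell, beside the same shares of all genes. Limma called 1 higher and 2 lower, beside 18.6% and 23.2%. Among the 11 the log2 ratio had a median of 0.03. The 2 that fell were Nqo1 (5.94 RPKM in Dio3KO-labelled and 7.29 RPKM in wild-type testes) and Txnrd1 (25.1 and 30.1 RPKM). The list was drawn up to hold targets of NRF2, so these are not its only ones. Gsr (65.9 and 63.0 RPKM) and Hmox1 (38.1 and 38.9 RPKM) did not pass.

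From the families of organic ion and nucleoside carriers, here called uptake carriers, 13 listed genes were tested. They were listed by family, and uptake into cells is not established here for each. Of these, 5 rose, 1 fell and 7 did not pass, beside 14.0% higher and 15.9% lower among all genes tested. The log2 ratio of the 13 had a median of 0.37. Slco3a1, an organic anion carrier, rose (20.3 RPKM in Dio3KO-labelled and 10.4 RPKM in wild-type testes). The carnitine carrier Slc22a5 (14.3 and 9.41 RPKM), the nucleoside carrier Slc29a1 (106 and 82.3 RPKM) and Slco2b1 (1.85 and 0.90 RPKM) rose too. Slc22a17 (45.0 and 51.7 RPKM) and Slc29a2 (2.10 and 2.87 RPKM) did not pass. Another 19 listed carriers were below 1 RPKM in both groups and 1 was not matched.

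In whole testes a change in the number of cells of a type and a change in RNA per cell cannot be told apart. Of 7 marker lists, only those of macrophages and endothelium held genes that rose and 0 that fell. Over all genes tested, 14.0% rose and 15.9% fell. Of 11 tested macrophage markers 9 rose and 0 fell, the median log2 ratio was 0.99, and the 12 listed markers summed to 192 RPKM in Dio3KO-labelled and 96.1 RPKM in wild-type testes. Of 12 endothelial markers 7 rose and 0 fell, their median was 0.51, and they summed to 121 and 92.7 RPKM in the same order. Limma called 0 of either list lower. Among 12 Sertoli markers 5 rose and 4 fell, with a median of 0.10 (3102 and 2447 RPKM summed). For 8 Leydig markers 3 rose and 1 fell, with a median of 0.36 (704 and 514 RPKM). With 8 myoid markers 2 rose and 1 fell, and the median was -0.03 (583 and 637 RPKM). Of 9 tested germ cell markers 0 passed in either direction, with sums over 10 of 370 and 406 RPKM. Limma called 3 of these lower, and red cell genes summed to 1685 and 1909 RPKM with 0 past the threshold by either test. In these 7 lists 0 markers were listed at 0 in either group. The part of macrophages, endothelium or any other cell type in the members' results was not tested.

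**Figure D4:**
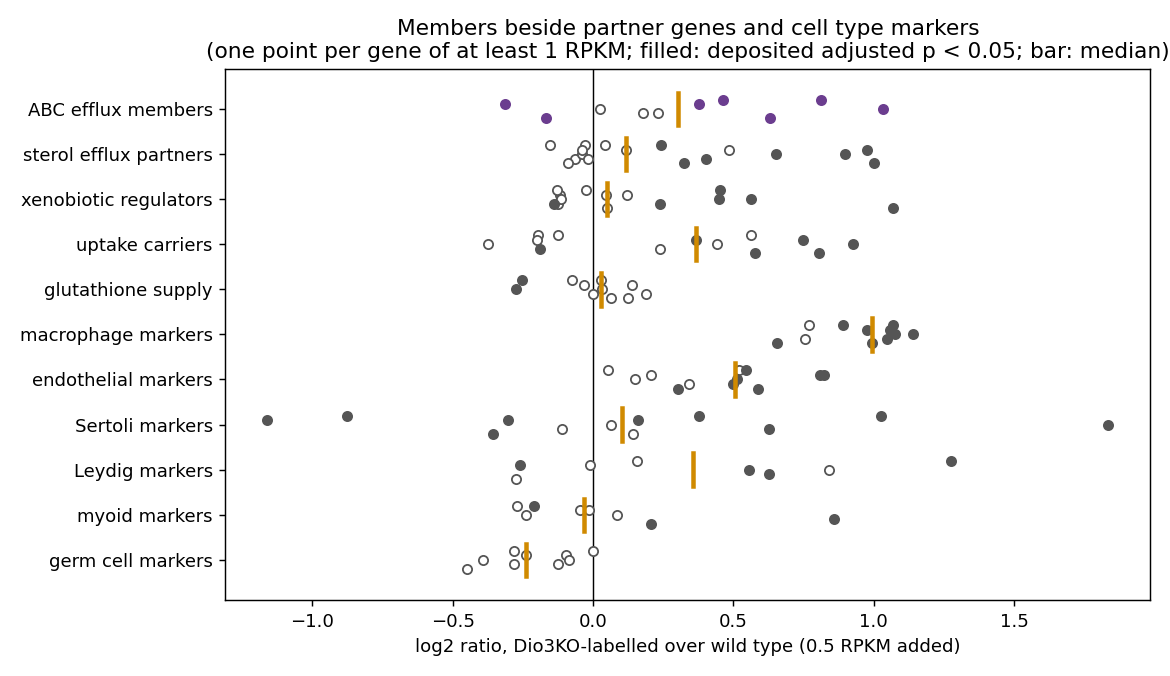
Log2 ratio of Dio3KO-labelled over wild type for each gene of at least 1 RPKM, by list, with the list's median as a bar. Filled points have a deposited adjusted p below 0.05. The members' median (0.30) stands below those of the macrophage (0.99), endothelial (0.51) and Leydig (0.36) markers and of the uptake carriers (0.37). The germ cell markers' median is -0.24.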

How the data were processed

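The submitters' processing notes list FastQC, Novoalign 2.08 and mm10 without a role. For each transcript the authors deposited, per the file headers, a mean RPKM and a CV per group and an adjusted p-value. The test behind it, the counting tool and the annotation were not given in the sources used here. In the labels the extraction text names hypothalami, whereas the labelled tissue is testis. The 147417 lines held each of 49139 transcripts 3 times, and repeats were dropped. The highest CV, 2.00, is that of 4 samples with 1 above 0 and an SD over n - 1. Depth per sample is unknown.

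Symbols were matched to RefSeq and GENCODE M21 names, ignoring case and following older symbols. The best expressed transcript stood for its gene. Ratios were taken as log2(RPKM + 0.5), so changes of low genes are understated, and a standard error was computed from the CVs by the delta method. Genes that reached 1 RPKM in one group or both were tested, with 0.05 as the threshold on the authors' adjusted p. A moderated test was made with limma 3.58.1 (squeezeVar, robust, with a trend on 6 residual degrees of freedom, a CV of 0.00 set to 0.0025) in R 4.3.3. Its p-values were Benjamini-Hochberg adjusted across the genes tested, and the script was tested on simulated data. Nothing states that samples came from separate animals beyond the label of biological replicates, so p-values measure the spread between samples.

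The members and lists were chosen with earlier results of these data known. All 10 members are named. From each other list the text names up to 4 genes that passed, by smallest p, and up to 2 that did not, by highest level, but for cell type markers counts and sums are given. Motifs were searched in RefSeq promoter windows on both strands, and the GC box and E-box were added after the data were seen. Protein sequences were not used here, and 1 gene of the ABC superfamily, part of the counts, is not reported here by itself. Alternatives were pseudocounts of 0.1 and 1 RPKM, other transcripts, rescaling, centring, other tests and other level limits.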

Additional observations from a re-analysis of the deposited data

How the results depend on the processing

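No paired analysis was possible because the table gives group means and no value carries a replicate number; leaving out single replicates was not possible for the same reason. Over 13 settings, 126 values of single members kept their direction, and 9 changed sides of the threshold. Settings that changed only the pseudocount, the level limit, the summing of transcripts or the scaling outside limma kept the authors' adjusted p. In these no member could change sides of the threshold, and a pseudocount cannot change a direction. For Abca1 and Abca2, with 1 transcript each, the setting of second transcripts used the same transcript again. Abcb1b passed with its second transcript (log2 ratio 0.61), Abcg1 passed with limma on deposited, rescaled or centred means (0.23, 0.32 and 0.28), and Abcg2 no longer passed with its second transcript (-0.09) or with limma on rescaled (-0.07) or centred (-0.12) values. The limma settings on rescaled or centred means and on second transcripts were chosen after seeing the data. The count of members that rose dropped to 2 at 5 RPKM or more, since lower members were no longer tested, and the count that fell was 1 with second transcripts and with limma on second transcripts, rescaled or centred means. The members' median of 0.30 was 0.42 with second transcripts by either test, 0.42 with summed transcripts, 0.39 after rescaling by either test and 0.13 at 5 RPKM or more. Over all genes, limma called 4284 higher after rescaling and 3522 after centring. Among other ABC genes those higher numbered 2 with second transcripts or at 5 RPKM or more, 7 with no level limit, 8 with limma, 9 with limma rescaled or centred and 7 with limma on second transcripts, and those lower 2 with second transcripts and 1 at 5 RPKM or more. Regulators higher were 3 at 5 RPKM or more, and lower 0 with limma rescaled or centred. Glutathione genes higher were 1 with limma, 4 rescaled and 2 centred. Uptake carriers higher were 3 at 5 RPKM or more and 8 with limma rescaled or centred, and lower 2 with limma or limma on second transcripts and 0 at 5 RPKM or more or with limma rescaled. Apart from values that follow from fewer genes being tested, the cause was not tested. Unknown depth limits what can be said of members under 5 RPKM.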

Other observations

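Some ABC genes below 1 RPKM in both groups, which were not tested above and are named after their values were seen, had an adjusted p below 0.05 per the authors' deposited table. Abcc6, an exporter that protects soft tissue from calcification, was at 0.32 RPKM (CV 0.09) in Dio3KO-labelled and 0.16 RPKM (CV 0.20) in wild-type testes. Abca4, a retinoid flippase known from photoreceptors, was at 0.50 RPKM (CV 0.07) and 0.28 RPKM (CV 0.20) in the same order, and Abcg3 at 0.43 RPKM (CV 0.26) and 0.18 RPKM (CV 0.47). Abcb4, the phosphatidylcholine flippase gene that lies 27402 bases beyond Abcb1b on chromosome 5, was at 0.29 RPKM (CV 0.27) in Dio3KO-labelled and 0.27 RPKM (CV 0.39) in wild-type testes and did not pass. Abcc2, whose product MRP2 exports conjugates into bile, was at 0.06 RPKM in each group.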
